A study of Mus musculus with 12 samples.

Results

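The comparison described here set hippocampal RNA of the libraries labelled p75NTRko against that of the libraries labelled 5xFAD, the 2 single genotypes of a study with 4 genotypes. Its members were chosen by label alone: 3 libraries of each single genotype, 6 of the 12 libraries in all, read across the 12572 autosomal genes among the 13065 genes of the table that passed an expression filter. The 3 wild-type (WT) libraries served as the reference for departures that both single genotypes share. The 3 libraries of the cross, 5xFAD/p75NTRko, entered the shared filter, scaling and estimate of spread and are printed beside some genes. They also entered the interaction given for Adra1b near the end. All mice were 2 months old and had received BrdU, a thymidine analogue taken up by dividing cells, and every library carried the same batch label. 5xFAD names a mouse line with human transgenes that bear mutations of familial Alzheimer's disease, driven in neurons by the promoter of Thy1. The label p75NTRko stands for a knockout of Ngfr, which encodes the p75 receptor for neurotrophins, and the labels do not say which allele was used. Each library is labelled as a biological replicate. Strain, sex, breeding and whether animals were pooled are not given in the sources used here. The series title places the study in adult hippocampal neurogenesis in Alzheimer's disease, and the present comparison asks how the 2 single genotypes differ from each other and where they leave WT in the same direction.

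As background, the p75 receptor binds all neurotrophins with similar affinity and binds their uncleaved precursors more strongly when it pairs with sortilin. It has no kinase of its own and signals through adaptor proteins, some of which lead to cell death and some to growth arrest. In the adult brain it is best known from cholinergic neurons of the basal forebrain, whose axons reach the hippocampus, and it has been described on neural progenitor cells. The 5xFAD transgenes raise the production of amyloid-beta peptide in neurons early in life, and plaques, activated microglia and reactive astrocytes follow.

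Promoters of 3 genes are shown first, because Ngfr carries the largest difference among the genes named below in the direction of p75NTRko, Fxr1 lay above WT in every 5xFAD library and below it in every p75NTRko library, and Sv2a lay below WT in every p75NTRko library. Each is the first 250 bases of the promoter listed for the gene on GRCm38.p6, read 5′ to 3′ on the gene's strand. Capitals mark matches of 3 motifs: the GC box GGGCGG, the CAAT box as CCAAT, and the TATA box as TATAAA. A window can reach into the gene. That of Fxr1 runs to 34020078, past the gene's RefSeq start at 34020058. That of Cacna2d1, counted below, begins at 15934441, inside a gene that starts at 15934264. Both strands were searched, and neighbouring matches run together.
Ngfr (chr11:95587699-95587948, minus strand): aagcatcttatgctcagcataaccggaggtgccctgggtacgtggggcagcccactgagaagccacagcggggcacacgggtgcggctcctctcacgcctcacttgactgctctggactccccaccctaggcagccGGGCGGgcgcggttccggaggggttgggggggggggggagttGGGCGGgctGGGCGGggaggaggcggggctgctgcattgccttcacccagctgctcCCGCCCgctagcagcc
Fxr1 (chr3:34019829-34020078, plus strand): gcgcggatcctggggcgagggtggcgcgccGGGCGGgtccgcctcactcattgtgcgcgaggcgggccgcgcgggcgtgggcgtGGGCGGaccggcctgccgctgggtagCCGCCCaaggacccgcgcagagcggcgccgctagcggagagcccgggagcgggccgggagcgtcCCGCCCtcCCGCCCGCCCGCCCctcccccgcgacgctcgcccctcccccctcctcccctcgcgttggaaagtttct
Sv2a (chr3:96180977-96181226, plus strand): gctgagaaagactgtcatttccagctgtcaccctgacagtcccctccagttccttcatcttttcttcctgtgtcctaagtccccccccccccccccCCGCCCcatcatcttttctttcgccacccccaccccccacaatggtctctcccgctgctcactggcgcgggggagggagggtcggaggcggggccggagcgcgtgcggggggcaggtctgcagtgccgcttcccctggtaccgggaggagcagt
The Ngfr window holds 4 GGGCGG matches, that of Fxr1 7 and that of Sv2a 1, and none of the 3 holds a CCAAT or TATAAA. Of the 11 genes past the threshold below, 8 had a promoter in the table: 5 of these 8 hold GGGCGG, against 32.94% of 27025 promoters of the same length, 2 hold CCAAT, against 34.46%, and 1 holds TATAAA, against 12.97%. The 27025 promoters were not limited to the genes tested here, so no enrichment is read from these shares.

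The 6 libraries held 4316739 to 6683613 gene-assigned counts, within the range of all 12, and 15494 to 15876 genes with a count. At these depths 3 counts correspond to 0.446 to 0.690 CPM (gene counts on a common library size after scaling). The 3 libraries within each single genotype resembled each other more than those of WT or of the cross: the biological coefficient of variation was 8.80% within 5xFAD and 8.99% within p75NTRko, against 17.8% in WT and 17.1% in 5xFAD/p75NTRko, and 13.8% over all 12. The single genotypes nevertheless differed in properties that the labels do not give. Reads outside any annotated feature made up 32.7%, 32.8% and 33.0% of the table in 5xFAD and 30.9%, 31.0% and 31.3% in p75NTRko, without overlap, and 28.9% to 31.1% in WT. Summed CPM of 18 choroid plexus markers was 355 to 2012 in 5xFAD, 4571 to 7469 in p75NTRko and 2486 to 6141 in WT, with none of the markers at 0. Summed CPM of 18 thalamic and habenular markers was 508 to 614 in 5xFAD, 478 to 500.3 in p75NTRko and 783 to 1084 in WT, again with none at 0. For 18 striatal markers it was 721 to 753, 651 to 680 and 736 to 889, with Drd2 and Gpr6 at 0 in every library. In the cross the choroid plexus sum ran from 207 to 7399, from below every 5xFAD library into the p75NTRko range. The thalamic and habenular sum ran from 423 to 1277 there, beyond all other libraries on both sides, and the striatal sum from 677 to 828. The 18 markers of dentate gyrus and CA fields summed to 1539 to 1726 in 5xFAD, 1561 to 1619 in p75NTRko and 1335 to 1696 in WT. In the cross they summed to 1512 to 1665, and none was at 0 in every library. How purely hippocampal the samples were was not tested. Of 6 blood markers, the haemoglobin genes Hba-a1, Hba-a2, Hbb-bs and Hbb-bt were at 0 in every library. Xist was 1.53 to 3.58 CPM in 5xFAD, 396 CPM in p75NTRko replicate 1, 1.64 and 1.84 CPM in the other two p75NTRko libraries, 376 to 394 CPM in WT and 360 to 439 CPM in the cross. Summed CPM of 4 Y-linked genes was 169 to 201 in 5xFAD and 0.741, 156 and 168 in p75NTRko. In WT it was 0.332 to 0.747, and in the cross 0.656 to 1.36. By these genes the WT and cross libraries and p75NTRko replicate 1 read as female. The 5xFAD libraries and the other p75NTRko libraries read as male. The contrast of either genotype with WT therefore moves with this class, called Xist class below. The direct contrast does so in part, through p75NTRko replicate 1. Only p75NTRko held both classes, so any term for Xist class below is set by its replicate 1 against its other libraries. The part these properties play in the gene differences below was not tested except where a value is given.

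**Figure D1:**
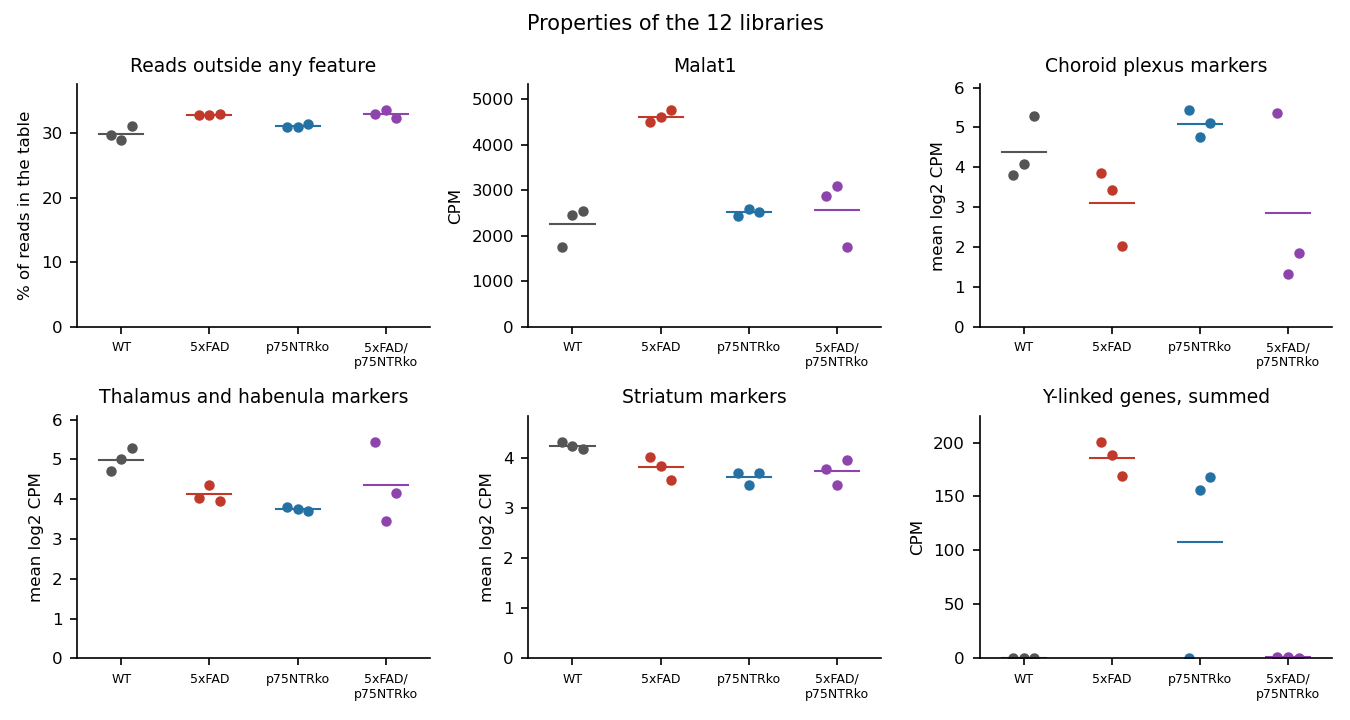
Properties of the 12 libraries by genotype: reads outside any feature (% of the table), Malat1 (CPM), mean log2 CPM for markers of choroid plexus, of thalamus and habenula, and of striatum, and the summed CPM of 4 Y-linked genes. Points are libraries and lines are means of 3. The 5xFAD libraries lie above the p75NTRko libraries in reads outside features and Malat1 and below them in choroid plexus markers.

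Of the genes behind the labels, Ngfr was read before the others, and its direction ran against the knockout label. It stood at 7.79, 7.36 and 5.95 CPM there, 1.70, 0.751 and 0.841 CPM in 5xFAD, 0.897, 1.95 and 0.166 CPM in WT and 6.33, 10.5 and 10.5 CPM in 5xFAD/p75NTRko. No library with the receptor label overlapped one without it. Against 5xFAD the log2 fold change came to 2.62 (SE 0.47, adjusted p 0.0519) by edgeR, short of the threshold of 0.05, and it was 1.43 with an adjusted p of 0.354 with a term for the share of reads outside features (adjusted p of 0.000147 to 0.354 over the alternatives). Any direction assigned to loss of the receptor therefore rests on the labels alone. A read at the 3′ end would not show a deletion elsewhere in the gene, and what part of Ngfr the reads cover is not given in the sources used here.

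Thy1, a surface glycoprotein of neurons whose promoter drives the 5xFAD transgenes, separated the single genotypes most widely among the genes past the threshold. It was at 3977, 4018 and 1596 CPM in 5xFAD, 741, 739 and 688 CPM in p75NTRko, 777, 939.8 and 753 CPM in WT and 1781, 4019 and 3180.3 CPM in the cross. The third 5xFAD library lay far under the other two and still above every library without the transgenes. The log2 fold change of p75NTRko against 5xFAD came to -2.15 (SE 0.31, adjusted p 0.0185) by edgeR, a mean of 4.43-fold in favour of 5xFAD. App, the mouse precursor of amyloid-beta, averaged 1065 ± 42.4 CPM in 5xFAD and 965 ± 48.2 CPM in p75NTRko (SD, n = 3 each), a log2 difference of -0.14 (SE 0.12, adjusted p 0.917) by edgeR, not past the threshold although the libraries did not overlap. Whether transcripts of the transgenes can be counted under mouse symbols was not tested.

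Between the 2 single genotypes, 11 autosomal genes passed the threshold, 0.0875% of the 12572 tested, and all 11 were lower in p75NTRko than in 5xFAD. They were Ide, Impad1, Thy1, Glg1, Fxr1, Sv2a, Cacna2d1, Pdap1, C230091D08Rik, Peg3 and Pcdh7. No gene was called higher in p75NTRko by edgeR (0 of 12572, 0%), where 328 genes (2.61%) had an unadjusted p under 0.05 in that direction and 576 (4.58%) in the other. DESeq2, run on the same counts, called 10 higher and 71 lower (0.0795% and 0.565%, 0.644% together). A fit of the 6 libraries alone, which does not take in the wider spread of WT and the cross, called 65 higher and 144 lower (0.542% and 1.20% of 11986, 1.74% together). The balance of directions turned under other terms in the edgeR fit: 50 genes were called higher and 29 lower with a term for the thalamus and habenula score, and 42 higher and 29 lower with a term for reads outside features. Libraries of the 2 genotypes did not overlap for 1027 genes in the direction of p75NTRko and 1229 in that of 5xFAD (8.17% and 9.78%). Read against WT, the 11 genes fell into 3 patterns: 5 lay above WT in every 5xFAD library and below it in every p75NTRko library, 4 lay above WT in 5xFAD and overlapped it in p75NTRko, and 2 overlapped WT in 5xFAD and lay below it in p75NTRko. Over all autosomal genes, 10.5% had every 5xFAD library above WT and 8.42% every p75NTRko library below it. The WT mean lay between the means of the single genotypes for all 11. It did so for 403 of the 576 lower genes with an unadjusted p under 0.05, and for 3310 of all 12572. The 11 were chosen by the gap between the single genotypes, so their patterns against WT are not independent of that choice. The shares over all genes were not limited to genes with such a gap.

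**Figure D2:**
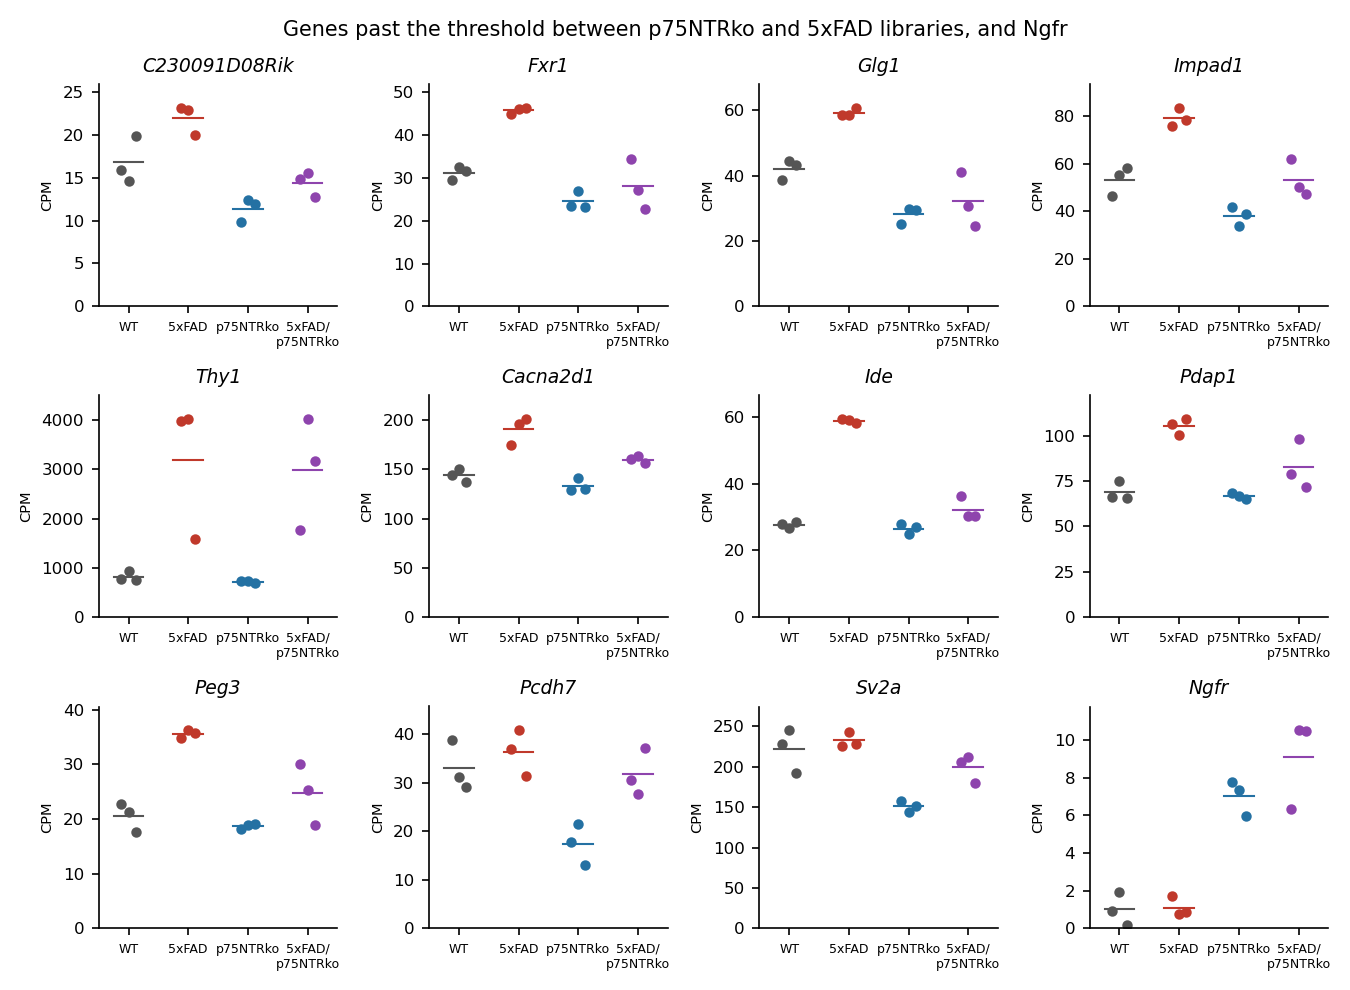
CPM of the 11 genes past the threshold and of Ngfr in the 12 libraries, ordered by their position relative to WT. Points are libraries and lines are means of 3. In each of the 11 genes the 3 p75NTRko libraries lie below the 3 5xFAD libraries, and Ngfr lies the other way round.

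The group above WT in 5xFAD and below it in p75NTRko held Impad1, Glg1, Fxr1, C230091D08Rik and Thy1. Impad1 encodes a phosphatase of the Golgi lumen that clears a by-product of sulfation. It was at 75.9, 83.4 and 78.3 CPM in 5xFAD, 46.6, 55.2 and 58.2 in WT and 41.7, 33.8 and 38.9 in p75NTRko, and the log2 difference between the single genotypes came to -1.05 (SE 0.13, adjusted p 0.00532) by edgeR. Glg1, a Golgi glycoprotein that binds fibroblast growth factors, was at 58.4, 58.4 and 60.6 CPM in 5xFAD, 38.7, 44.3 and 43.3 in WT and 25.2, 29.7 and 29.4 in p75NTRko. The log2 fold change of Glg1 came to -1.07 (SE 0.15, adjusted p 0.0185) by edgeR. Both genes stood about as far above WT in 5xFAD as below it in p75NTRko, and neither departure from WT passed by itself: for Impad1 edgeR gave 0.57 (SE 0.12, adjusted p 0.116) in 5xFAD and -0.48 (SE 0.13, adjusted p 0.258) in p75NTRko, and for Glg1 0.49 (SE 0.15, adjusted p 0.236) and -0.58 (SE 0.16, adjusted p 0.257). Fxr1, an RNA-binding protein of the fragile X family, was at 44.8, 46.2 and 46.3 CPM in 5xFAD, 29.4, 32.5 and 31.7 in WT and 23.5, 26.9 and 23.2 in p75NTRko. Its log2 fold change was -0.90 (SE 0.14, adjusted p 0.0385) by edgeR. C230091D08Rik, a noncoding transcript on chromosome 7, was at 23.1, 22.9 and 19.98 CPM in 5xFAD, 15.8, 14.6 and 19.9 in WT and 9.82, 12.4 and 11.9 in p75NTRko. Its log2 fold change was -0.95 (SE 0.16, adjusted p 0.0498) by edgeR. For Fxr1 and C230091D08Rik too, neither departure from WT passed by itself. The lowest 5xFAD library of C230091D08Rik, at 19.98 CPM, barely cleared the highest WT library, at 19.9 CPM. In the cross, Impad1, Glg1, Fxr1 and C230091D08Rik averaged 53.2 ± 7.71, 32.2 ± 8.36, 28.1 ± 5.97 and 14.4 ± 1.45 CPM (SD, n = 3), nearer to p75NTRko than to 5xFAD. For Impad1 the WT mean was 53.3 CPM, next to that of the cross. The cross libraries of Thy1, given above, all lay above those of p75NTRko and WT. For Thy1 the p75NTRko and WT libraries nearly met, and that departure did not pass (edgeR or DESeq2 adjusted p 0.565 to 0.998 over the alternatives). Over the 11 genes the cross mean was nearer to p75NTRko for 7 and to 5xFAD for 4, against 5946 and 6626 of all 12572.

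The group above WT in 5xFAD and overlapping it in p75NTRko held Ide, Cacna2d1, Pdap1 and Peg3. Ide encodes the insulin-degrading enzyme, a protease that also cleaves amyloid-beta, and had the smallest p of all genes. It was at 59.3, 59.0 and 58.1 CPM in 5xFAD, 27.8, 24.8 and 26.9 in p75NTRko, 27.9, 26.6 and 28.5 in WT and 36.3, 30.2 and 30.2 in the cross. The 5xFAD libraries lay close together and above every other library, and their mean was 2.21-fold that of p75NTRko. The log2 fold change of p75NTRko against 5xFAD came to -1.15 (SE 0.11, adjusted p 0.000534) by edgeR, and it stayed past the threshold in every one of the 18 alternatives run. Against WT, edgeR gave Ide 1.08 (SE 0.11, adjusted p 0.000905) in 5xFAD and -0.061 (SE 0.11, adjusted p 0.860) in p75NTRko. Peg3, an imprinted zinc-finger gene expressed from the paternal allele, was at 34.8, 36.2 and 35.8 CPM in 5xFAD and 18.2, 18.9 and 19.2 in p75NTRko, a log2 difference of -0.92 (SE 0.16, adjusted p 0.0498) by edgeR. Pdap1, a phosphoprotein associated with platelet-derived growth factor, was at 106, 100.1 and 109 CPM in 5xFAD and 68.4, 66.7 and 65.0 in p75NTRko, with -0.66 (SE 0.11, adjusted p 0.0498) by edgeR. Cacna2d1, an auxiliary subunit of voltage-gated calcium channels, was at 175, 196 and 201 CPM in 5xFAD and 129, 142 and 129.6 in p75NTRko, with -0.51 (SE 0.086, adjusted p 0.0498) by edgeR. The WT libraries of these 3 genes, at 17.6 to 22.7, 65.9 to 74.98 and 137 to 150.4 CPM, overlapped those of p75NTRko.

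Sv2a and Pcdh7 overlapped WT in 5xFAD and lay below it in p75NTRko. Sv2a, a glycoprotein of the synaptic vesicle membrane, was at 158, 143 and 152 CPM in p75NTRko, 226, 243 and 228 in 5xFAD and 229, 245 and 192 in WT. Its log2 fold change between the single genotypes was -0.62 (SE 0.10, adjusted p 0.0498) by edgeR. Pcdh7, a protocadherin of the cell surface, was at 17.8, 21.4 and 13.1 CPM in p75NTRko, 36.8, 40.8 and 31.3 in 5xFAD and 38.9, 31.2 and 29.0 in WT, with -1.08 (SE 0.19, adjusted p 0.0498) by edgeR. In the cross, Sv2a was at 206, 212 and 179.9 CPM and Pcdh7 at 30.5, 27.7 and 37.1 CPM, every library above those of p75NTRko.

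The 6 genes of largest p among the 11 shared an adjusted p of 0.0498, and the next 6, among them Nemf, Ankrd11 and Ngfr, shared 0.0519. The list is therefore cut within a continuous series of values. Leaving out any library of the 6 in turn left 1 to 3 genes past the threshold, with a term for Xist class 2 passed, and without p75NTRko replicate 1, which leaves libraries of a single Xist class, 2. The 576 genes with an unadjusted p under 0.05 in that direction had a median genomic span of 50.1 kb and a median level of 41.5 CPM, and the 328 in the other direction 18.2 kb and 16.5 CPM, against 24.7 kb and 23.0 CPM over all autosomal genes tested. These medians are a description, and the count level of a gene also bears on its p.

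**Figure D3:**
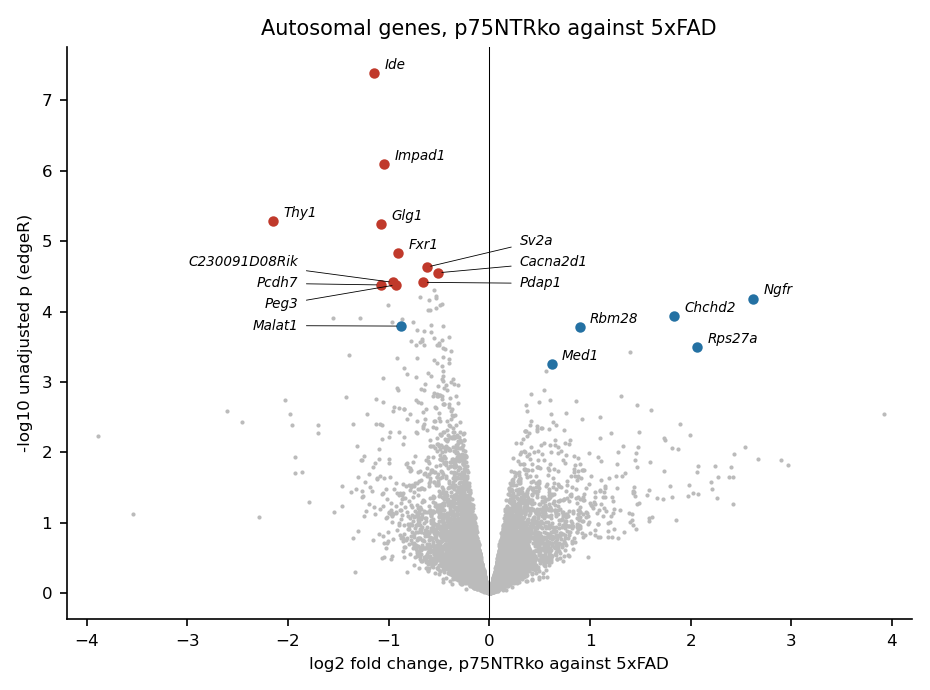
Log2 fold change of p75NTRko against 5xFAD (x axis) and -log10 of the unadjusted edgeR p (y axis) for the autosomal genes tested, with 1 gene outside the plotted range. Red points are the 11 genes past the threshold, all left of 0, and blue points are other genes named in the text.

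On the side of p75NTRko, where no gene passed, the rule for named genes gave the smallest p-values without overlap, and these are values and not calls. After Ngfr came Chchd2, a small protein of the mitochondrial intermembrane space. It was at 4958, 3955 and 4781 CPM in p75NTRko, 1305, 1328 and 1193 in 5xFAD, 1225, 1899 and 1353 in WT and 1148, 4219 and 4773 in the cross. The log2 fold change came to 1.84 (SE 0.35, adjusted p 0.0618) by edgeR. Rps27a, which encodes ubiquitin fused to a ribosomal protein, was at 422, 393 and 365 CPM in p75NTRko, 85.4, 132 and 65.0 in 5xFAD, 161, 338 and 152 in WT and 109, 449 and 474 in the cross, with 2.06 (SE 0.44, adjusted p 0.0839) by edgeR. For both, 2 of the 3 libraries of the cross lay with p75NTRko and replicate 1 lay with 5xFAD. Chchd2 and Rps27a have near-identical copies elsewhere in the genome, so their counts are uncertain. Rbm28, a nucleolar RNA-binding protein, averaged 127 ± 11.9 CPM in p75NTRko and 68.4 ± 5.69 in 5xFAD (SD, n = 3), with 0.90 (SE 0.18, adjusted p 0.0658) by edgeR. Med1, a subunit of the Mediator complex, averaged 157 ± 25.2 and 102 ± 7.79 CPM (SD, n = 3), with 0.62 (SE 0.14, adjusted p 0.114). The other genes named on this side were Tmem181b-ps, B4galt1, Emp2, Fam163b, Hdc, Slco1c1 and Slc31a1, with log2 fold changes of 1.39, 0.56, 0.54, 0.42, 1.31, 0.60 and 0.86 and edgeR adjusted p-values of 0.0879 to 0.216. Nemf, a factor that acts on stalled ribosomes, filled the list on the side of 5xFAD, at 65.7 ± 1.70 CPM there against 44.8 ± 1.48 in p75NTRko (SD, n = 3), with -0.55 (SE 0.10, adjusted p 0.0519) by edgeR.

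Genes that lie near Ngfr on chromosome 11 were read apart, since a region carried along with a targeted allele can differ between lines. Of 233 tested genes within 10 Mb of Ngfr, 24 had an unadjusted p under 0.05 (9 higher and 15 lower in p75NTRko), or 10.3% against 7.19% of all autosomal genes, and for 24% against 17.9% the libraries did not overlap. By edgeR 0 of the 233 were called. Mapt, which encodes the microtubule-binding protein tau, was at 1125, 1115 and 1222 CPM in p75NTRko, 1644, 1588 and 1623 in 5xFAD, 1741, 1456 and 1625 in WT and 1163, 1097 and 1261 in the cross. Libraries with the receptor label lay below all others, and the log2 difference between the single genotypes came to -0.49 (SE 0.090, adjusted p 0.0532) by edgeR. Med1 had the same split in the opposite direction. Across the 19 autosomes the share with an unadjusted p under 0.05 ran from 5.36% to 8.90%, and chromosome 11 had 7.95%.

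The gene lists were read by counts and medians, set beside a median log2 fold change of 0.0019 and 50.4% positive values over all autosomal genes. They were chosen with earlier results of these data known, so no excess of members over all genes is read from their shares. Of 577 list members tested in 32 lists, edgeR called 0 higher and 2 lower, Ide and Sv2a, while 30 and 28 had an unadjusted p under 0.05, together 10.1% of the members against 7.19% of all autosomal genes (2.61% higher and 4.58% lower). Of the 30 that were higher, 13 were choroid plexus genes. DESeq2 called 2 higher and 7 lower, and the fit of the 6 libraries 20 higher and 12 lower, with 16 of the 20 from the choroid plexus list, where that fit called 1.74% of all genes. Ligands and receptors of the neurotrophin family had values on both sides of 0. Of 11 members tested, 6 had positive and 5 negative values with a median of 0.0048, and edgeR called 0, with 2 higher and 2 lower at an unadjusted p under 0.05. Beside Ngfr, Sorcs3, a sorting receptor of the sortilin family, was at 48.2, 47.4 and 46.4 CPM in p75NTRko and 66.4, 62.3 and 72.6 in 5xFAD, with -0.50 (SE 0.11, adjusted p 0.0800) by edgeR. The 13 tested partners and adaptors of the receptor all had positive values with a median of 0.10, of which 1 had an unadjusted p under 0.05. That was Ndn, an imprinted gene of the MAGE family whose product binds the receptor's intracellular part, at 139, 153 and 81.8 CPM in p75NTRko and 81.2, 91.8 and 62.5 in 5xFAD, where the third library of p75NTRko overlapped 5xFAD (0.66 (SE 0.19, adjusted p 0.305) by edgeR). Traf6, a ubiquitin ligase recruited to the receptor, had 0.38 (SE 0.18, adjusted p 0.706).

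Genes of amyloid production and clearance had 7 positive and 11 negative values of 18, with Ide called lower and 3 lower at an unadjusted p under 0.05, Ide and Mapt among them. Adult neurogenesis genes were split 11 to 12 of 23 with a median of -0.03, 0 called and 3 lower at an unadjusted p under 0.05. Ncam1, the neural cell adhesion molecule, had -0.26 (SE 0.095, adjusted p 0.462) by edgeR and Pcna, a clamp of replicating DNA, -0.44 (SE 0.20, adjusted p 0.658). Of 17 presynaptic release genes, Sv2a was called lower and 3 in all had an unadjusted p under 0.05 in that direction. Of 10 GABA-A receptor subunits 3 were lower at an unadjusted p under 0.05, with Gabrb2 at -0.26 (SE 0.091, adjusted p 0.447) and Gabra2 at -0.45 (SE 0.16, adjusted p 0.462) by edgeR. Glutamate receptor genes were negative in 14 of 19, 1 of them at an unadjusted p under 0.05. All 7 abundant neuronal long noncoding RNAs had negative values with a median of -0.23, and 3 had an unadjusted p under 0.05. Malat1, a nuclear RNA, was at 1761, 2458 and 2551 CPM in WT, 4511, 4605 and 4759 in 5xFAD, 2435, 2589 and 2520.3 in p75NTRko, and the cross had 2882, 3089.8 and 1759. Between the single genotypes edgeR gave Malat1 -0.88 (SE 0.17, adjusted p 0.0658). Meg3, a maternally expressed noncoding RNA, had -0.46 (SE 0.091, adjusted p 0.0658). The cause of the Malat1 difference was not tested. The share of reads outside features was higher in 5xFAD as well, as given above. In the cross the share was 32.4% to 33.5%, and Malat1 lay below every 5xFAD library. With a term for that share, the log2 fold change was -0.57 for Malat1 (adjusted p 0.255 by edgeR, 2.60e-06 to 0.304 over the alternatives) and -0.62 for Meg3 (adjusted p 0.0420, 0.000270 to 0.351 over the alternatives).

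Choroid plexus genes, which mark the epithelium that secretes cerebrospinal fluid into the ventricles, made up the widest list difference. All 17 tested had higher values in p75NTRko, with log2 fold changes of 0.89 to 2.42 and a median of 1.81, and in all 17 the libraries did not overlap, against 8.17% of all genes. Of these 13 had an unadjusted p under 0.05 and edgeR called 0 of them. DESeq2 also called 0, and the fit of the 6 libraries called 16 of 17. Car12, a carbonic anhydrase, was at 52.8, 43.5 and 60.1 CPM in p75NTRko, 30.1, 31.9 and 22.7 in 5xFAD, 27.9, 29.4 and 47.3 in WT and 50.3, 22.8 and 17.5 in the cross, with 0.89 (SE 0.31, adjusted p 0.448) by edgeR. Lbp, which binds bacterial lipopolysaccharide, was at 21.5, 11.3 and 15.8, 6.45, 4.88 and 4.63, 5.38, 7.63 and 17.8 and 12.7, 1.56 and 2.46 CPM in the same order, with 1.60 (SE 0.57, adjusted p 0.459). For both genes WT libraries reached into the ranges of either single genotype. In the cross, replicate 1 lay within the p75NTRko range and the other two libraries near or below the lowest 5xFAD library. In bulk tissue, more or fewer cells of a type and more or less RNA per cell cannot be told apart. Ependymal genes had positive values in 6 of 6 with a median of 0.65, 1 of them, Dynlrb2, at an unadjusted p under 0.05 (1.19 (SE 0.47, adjusted p 0.549) by edgeR), and Mia had 0.89 (SE 0.50, adjusted p 0.788).

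Glial and vascular lists gave small medians. Of 23 oligodendrocyte genes 14 were positive, with a median of 0.05 and none under an unadjusted p of 0.05. Gsn had 0.26 (SE 0.15, adjusted p 0.781) and Mobp -0.37 (SE 0.18, adjusted p 0.712) by edgeR. Homeostatic microglia genes were split 7 to 6 of 13 with a median of 0.05, led by Olfml3 at 0.46 (SE 0.26, adjusted p 0.796). Genes raised in disease-associated microglia were split 11 to 7 of 18 with a median of 0.05, led by Ctsd, a lysosomal protease, at 0.16 (SE 0.082, adjusted p 0.760) and Ccl6, a chemokine, at -0.50 (SE 0.27, adjusted p 0.776). Neither microglial list had a member with an unadjusted p under 0.05. Astrocyte genes were split 9 to 8 of 17 with a median of 0.01, with S100b at -0.30 (SE 0.10, adjusted p 0.436) and Aldoc at -0.17 (SE 0.11, adjusted p 0.827). Endothelial and mural genes were negative in 8 of 11 with a median of -0.14, with Kdr at -0.21 (SE 0.21, adjusted p 0.925) and Acta2 at -0.44 (SE 0.33, adjusted p 0.889). Neuronal region markers were mostly small as well: those of dentate gyrus and CA fields had a median of 0.02 over 18, with Pou3f1 at -0.49 (SE 0.15, adjusted p 0.341) and Coch at 1.05 (SE 0.46, adjusted p 0.646), and those of cortex and subiculum 0.06 over 12, with Rorb, a nuclear receptor of cortical layers, at -0.63 (SE 0.17, adjusted p 0.240) and Nts at 0.34 (SE 0.20, adjusted p 0.813). Thalamic and habenular markers were negative in 14 of 16 with a median of -0.19, led by Lef1 at -1.24 (SE 0.50, adjusted p 0.582) and Synpo2 at 1.07 (SE 0.55, adjusted p 0.752). Striatal markers were negative in 14 of 15 with a median of -0.24, led by the exception Ppp1r1b at 0.44 (SE 0.15, adjusted p 0.417) and Meis2 at -0.36 (SE 0.16, adjusted p 0.670). Interneuron genes were split 7 to 6 with a median of 0.01, with Npy at 0.34 (SE 0.19, adjusted p 0.794) and Cort at 0.56 (SE 0.38, adjusted p 0.861).

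Lists of cellular state had medians of -0.20 to 0.07. Ribosomal protein genes were positive in 49 of 72 with a median of 0.05 and 5 higher at an unadjusted p under 0.05, Rps27a and Rpl11 (0.24 (SE 0.083, adjusted p 0.447) by edgeR) first. Respiratory chain genes were positive in 55 of 73 with a median of 0.05 and 4 higher and 1 lower at an unadjusted p under 0.05, the last being Ndufa10 with -0.55 (SE 0.11, adjusted p 0.0789), and Ndufs8 had 0.37 (SE 0.15, adjusted p 0.548). Proteasome subunits were split 18 to 18 of 36, with Psmd4 at 0.36 (SE 0.10, adjusted p 0.221) and Psmd11 at -0.40 (SE 0.12, adjusted p 0.305). Heat shock genes were positive in 12 of 16 with a median of 0.07, with the endoplasmic reticulum chaperone Hspa5 at 0.40 (SE 0.12, adjusted p 0.305) and Hsph1 at 0.17 (SE 0.10, adjusted p 0.832). Integrated stress response genes had a median of -0.06 over 10, with Chac1 at -0.54 (SE 0.31, adjusted p 0.800) and Atf4 at -0.17 (SE 0.17, adjusted p 0.925). Cholesterol genes were negative in 14 of 19 with a median of -0.09, with Insig1 at -0.56 (SE 0.26, adjusted p 0.693). Circadian genes were negative in 11 of 15 with a median of -0.16, with Clock at -0.17 (SE 0.083, adjusted p 0.729) and Cry2 at -0.25 (SE 0.15, adjusted p 0.816). Immediate early genes had a median of 0.04 over 17, with Jun at 0.22 (SE 0.12, adjusted p 0.793) and Npas4 at -0.81 (SE 0.50, adjusted p 0.835). Glucocorticoid-responsive genes had a median of 0.07 over 11, with Zbtb16 at -0.30 (SE 0.18, adjusted p 0.824) and Plin4 at 1.28 (SE 0.88, adjusted p 0.862), and Plin4 was at 19.8, 1.61 and 1.04 CPM in p75NTRko, so that replicate 1 alone set its sign. Adrenergic receptor genes had a median of -0.20 over 6, with Adra1b at 0.26 (SE 0.32, adjusted p 0.957). Slc38 transporter genes had a median of -0.03 over 8, with Slc38a2 at 0.20 (SE 0.11, adjusted p 0.779) and Slc38a4 at -0.48 (SE 0.39, adjusted p 0.911).

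**Figure D4:**
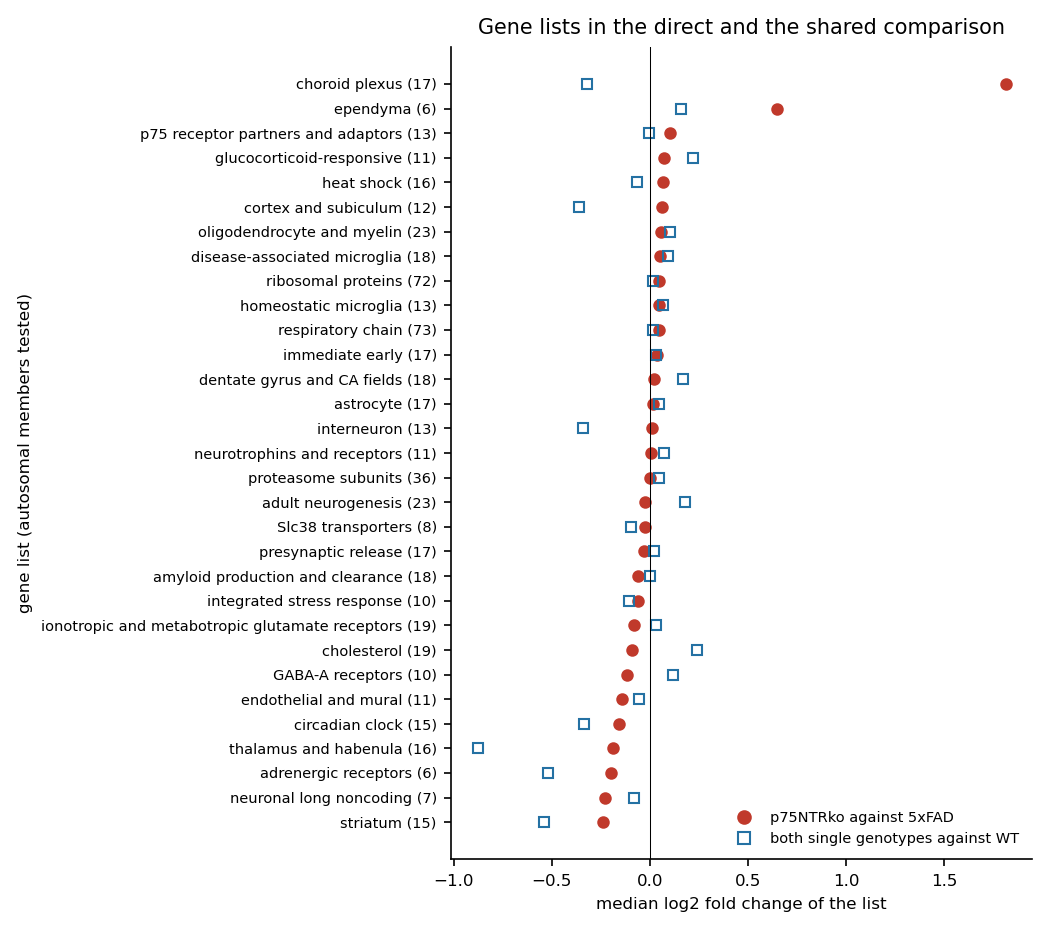
Median log2 fold change of each gene list with more than 1 tested member, for p75NTRko against 5xFAD (filled circles) and for the mean of both single genotypes against WT (open squares), with the number of members tested in brackets. Choroid plexus markers stand apart in the former, at 1.81, and thalamus and habenula markers in the latter, at -0.88.

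Departures from WT that both single genotypes share were read from the mean of both against WT, with the same sign required in each. The separate comparisons use the same 3 WT libraries, so their values are set side by side and no overlap of their lists is given as a result. 1 autosomal gene passed, Adra1b, lower in both (0.00795% of 12572). No gene was called higher by edgeR (0%), where 894 genes (7.11%) had an unadjusted p under 0.05 in that direction and 993 (7.90%) in the other, and DESeq2 called 31 higher and 45 lower (0.247% and 0.358%, 0.605% together). Here and below, such counts for the mean of both did not require the same sign in each genotype. The DESeq2 calls include Ide, for example, which edgeR gave -0.061 in p75NTRko against WT. Taken singly, 5xFAD had 4 autosomal genes past the threshold against WT (0.0318%): Ide and Thy1 higher (0.0159%), Adra1b and Slc38a2 lower (0.0159%), where DESeq2 called 87 (0.692%). p75NTRko had 0 (0%), with 1434 genes (11.4%) at an unadjusted p under 0.05 and 50 (0.398%) called by DESeq2. All 6 single-genotype libraries lay above all 3 WT libraries for 400 genes (3.18%) and below them for 423 (3.36%). With a term for Xist class 1 gene passed for the mean of both, a higher one and not Adra1b, and each of the 20 genes named here had an adjusted p of 0.895. That term was set by p75NTRko replicate 1 against the other p75NTRko libraries, so no conclusion on the class is drawn from it. The WT libraries weigh on these counts as well: without WT replicate 3, 146 genes passed for the mean of both, 50 for 5xFAD and 25 for p75NTRko.

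Adra1b encodes an alpha-1 adrenergic receptor, through which noradrenaline acts on neurons and glia. It was at 74.1, 60.9 and 35.8 CPM in WT. The 5xFAD libraries had 14.4, 19.5 and 13.3, those of p75NTRko 22.1, 17.5 and 16.9 and those of the cross 39.1, 19.3 and 44.4 CPM. Every single-genotype library lay below every WT library, and 2 of the 3 libraries of the cross lay within the WT range. The log2 fold change of the mean of both against WT came to -1.73 (SE 0.24, adjusted p 0.0477) by edgeR, with -1.85 (SE 0.30, adjusted p 0.0369) in 5xFAD and -1.60 (SE 0.29, adjusted p 0.117) in p75NTRko. With a term for the thalamus and habenula score it was -1.49 with an adjusted p of 0.376, with a term for reads outside features -0.66 with an adjusted p of 0.771, and with a term for Xist class -1.43 with an adjusted p of 0.895 (adjusted p of 3.47e-08 to 0.895 over the alternatives). Leaving out a library gave -1.97 to -1.49, past the threshold without WT replicate 3 or p75NTRko replicate 1 and not without any other single-genotype or WT library. Slc38a2, a transporter that takes neutral amino acids such as glutamine into cells, was next. It was at 329, 341 and 352 CPM in WT, 217, 194 and 228 in 5xFAD and 275, 239 and 222 in p75NTRko. The libraries of WT lay above all of these, with -0.58 (SE 0.092, adjusted p 0.0651) for the mean of both, -0.68 (SE 0.11, adjusted p 0.0369) in 5xFAD and -0.47 (SE 0.11, adjusted p 0.182) in p75NTRko by edgeR.

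The remaining genes named as lower in both, none past the threshold in the mean of both, had an edgeR adjusted p of 0.0949. Rora, a nuclear receptor and one of the thalamic markers, averaged 109 ± 9.31 CPM in 5xFAD, 86.0 ± 6.06 in p75NTRko and 184 ± 6.55 in WT (SD, n = 3), a log2 difference for the mean of both of -0.92. Thalamic markers moved with it, as given above. Vamp1, a SNARE protein of synaptic vesicles, averaged 101 ± 5.59, 78.9 ± 6.25 and 129 ± 9.83 CPM in the same order. Pdp1, which activates pyruvate dehydrogenase in mitochondria, averaged 147 ± 11.1, 148 ± 14.0 and 268 ± 44.5 CPM, with means of the single genotypes close to each other. Slc6a9, a glycine transporter, averaged 20.1 ± 3.998, 21.7 ± 1.15 and 33.8 ± 2.34 CPM. Sphk1, a kinase that makes sphingosine phosphate, averaged 1.93 ± 1.15, 1.27 ± 0.497 and 5.99 ± 0.578 CPM, near the limit of measurement in some libraries. Tppp3, Klhl18 and Fn1 had log2 differences of -0.61, -0.88 and -0.59.

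Genes named as higher in both, again none past the threshold, were led by Psmd4, a ubiquitin receptor of the proteasome. It was at 212, 234 and 209 CPM in WT, 287, 285 and 239.8 in 5xFAD and 320.1, 355 and 367 in p75NTRko, with 0.49 (SE 0.085, adjusted p 0.0949) for the mean of both by edgeR. The p75NTRko libraries lay above the 5xFAD libraries. Psma4, a subunit of the proteasome core, had 0.53 (SE 0.12, adjusted p 0.142) and stood the other way round, with 81.8 ± 4.97 CPM in 5xFAD and 60.8 ± 0.662 in p75NTRko against 48.8 ± 7.02 in WT (SD, n = 3). Pou3f1 averaged 148 ± 32.1 CPM in 5xFAD, 105 ± 5.01 in p75NTRko and 80.7 ± 15.8 in WT, with 0.63 (SE 0.13, adjusted p 0.136) for the mean of both. Bcl11b averaged 428 ± 59.5, 366 ± 24.9 and 243 ± 47.0 CPM, with 0.70 (SE 0.15, adjusted p 0.136). Neurod6 averaged 541 ± 85.0, 512 ± 47.6 and 332 ± 59.2 CPM, with 0.66 (SE 0.15, adjusted p 0.142). Nefl, the light chain of neurofilaments, Camk1d, a calcium-dependent kinase, Sh3bp5, Thpo and the predicted gene Gm6402 had log2 differences of 0.49, 0.56, 0.65, 0.74 and 0.61, with edgeR adjusted p-values of 0.0949 to 0.142.

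**Figure D5:**
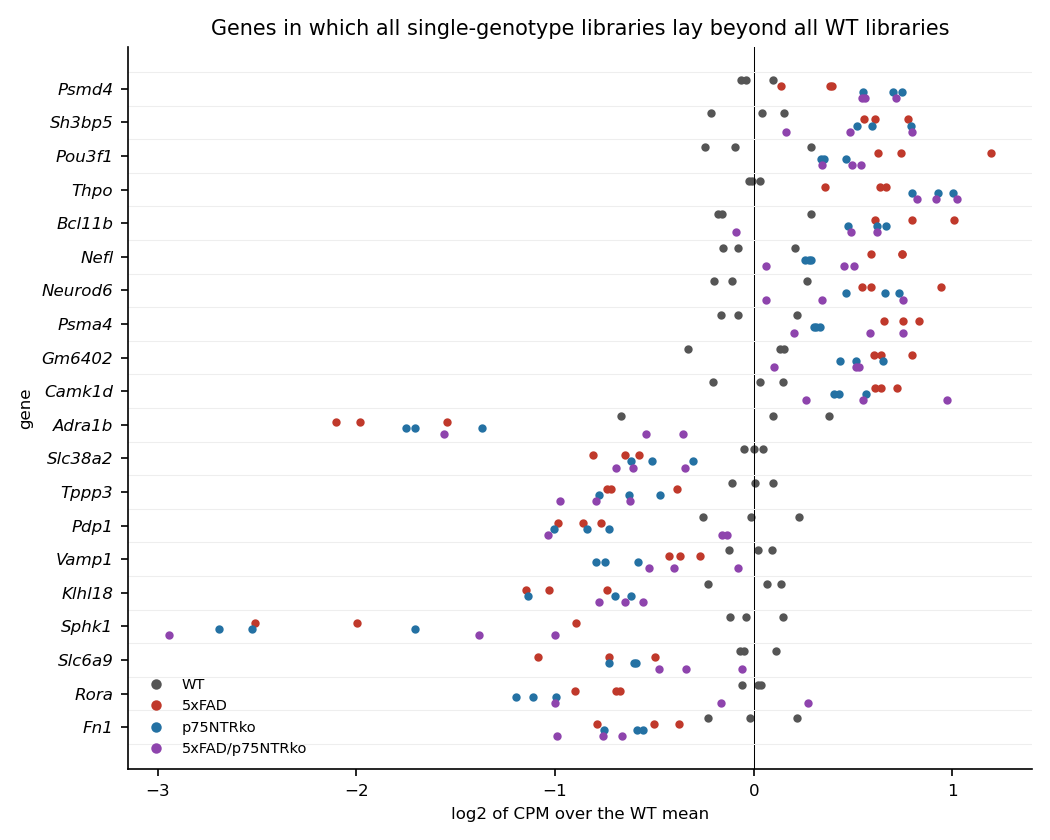
Log2 of CPM over the WT mean in each of the 12 libraries for the 20 genes named as higher or lower in both single genotypes. Points are libraries, coloured by genotype. Adra1b is the 1 gene of the 20 past the threshold.

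Read over the lists, the mean of both against WT had a median log2 difference of -0.0022 and 49.5% positive values over all autosomal genes. Since the lists were chosen with earlier results of these data known, no excess of members is read from their shares here either. Of the 577 list members edgeR called 0 higher and 1 lower, Adra1b, with 65 and 74 at an unadjusted p under 0.05, or 24.1% against 15.0% of all autosomal genes, and DESeq2 called 8 higher and 15 lower. Thalamic and habenular markers were negative in 16 of 16 with a median of -0.88 and 10 at an unadjusted p under 0.05. Striatal markers were negative in 12 of 15 with a median of -0.54 and 8 at an unadjusted p under 0.05. Interneuron genes were negative in 12 of 13 with a median of -0.34, 3 of them at an unadjusted p under 0.05. Cortical and subicular markers were negative in 10 of 12 with a median of -0.36, 5 lower and 2 higher at an unadjusted p under 0.05. In the dentate gyrus and CA field list 12 of 18 were positive with a median of 0.17, and 6 were higher and 3 lower at an unadjusted p under 0.05. Adult neurogenesis genes were positive in 14 of 23 with a median of 0.18, 8 higher and 2 lower at an unadjusted p under 0.05. Cholesterol genes were positive in 16 of 19 with a median of 0.24 and 5 higher at an unadjusted p under 0.05. Circadian genes were negative in 12 of 15 with a median of -0.34, 8 lower and 1 higher at an unadjusted p under 0.05. Oligodendrocyte genes were positive in 19 of 23 with a median of 0.10 and 5 higher at an unadjusted p under 0.05, and neurotrophin genes were positive in 9 of 11 with a median of 0.07, 4 higher and 1 lower. The thalamic and striatal lists name regions outside the hippocampus, and whether their members are also expressed by hippocampal cells was not tested. Their values were lower beside the other lists, so tissue carried along in dissection and genotype cannot be told apart here. Choroid plexus markers, wide apart between the single genotypes, had a median of -0.32 in the mean of both, with none of 17 at an unadjusted p under 0.05.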

How the data were processed

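Per the labels' protocols, hippocampal RNA was extracted with Trizol, required to have an integrity number over 7 and sequenced as QuantSeq 3′ libraries. The values the authors deposited are raw read counts by gene, 1 column a library, with no normalization. The submitters' processing notes name FastQC, HISAT2, SAMtools, HTSeq, edgeR and the build mm10, without versions; the annotation and use of strand are not given in the sources used here. Overlapping and antisense genes and near-identical copies are therefore uncertain. The table's summary lines, which name no gene, entered neither library sizes nor tests: reads outside features (28.9% to 33.5%), not aligned (18.6% to 25.4%), aligned more than once (9.57% to 12.1%) and ambiguous (0.226% to 0.291%).

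Tests used edgeR 4.0.16 under R 4.3.3: filterByExpr by genotype, TMM scaling (factors of 0.975 to 1.03), and a quasi-likelihood fit of a mean per genotype to all 12 libraries, p-values adjusted by Benjamini-Hochberg over all 13065 genes that passed the filter, and a threshold of 0.05. Only autosomal genes are reported, with positions from RefSeq GRCm38.p6, the assembly that mm10 names: 23203 of 24421 genes matched by symbol, 1103 by synonym and 25 through GENCODE M21 names, and 90 had none. CPM (reads scaled by library size) was computed on the scaled library sizes, and a standard error is the fold change over the square root of its F statistic. A departure counts as shared where the mean of both single genotypes against WT passes and both have the same sign. Every pair of libraries differed by more than counting noise (lowest chi-square over its degrees of freedom 2.97). Depth limits were taken at 3 counts and cover counting error only, since amplified reads are not independent molecules.

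Named genes were Ngfr, Thy1, App, Ide, Adra1b and Slc38a2, then 12 a direction between the single genotypes and 10 a direction for the mean of both (the largest changes past the threshold without overlapping libraries, filled by smallest p), and list members past the threshold or else the 2 of smallest p in their list. Some named genes are not reported here. Mapt, as a neighbour of Ngfr, was chosen after its values were seen. The members and the gene lists were chosen with earlier results of these data known. Alternatives were RLE size factors, other filters, a replicate term, terms for Xist class and for the tissue scores, autosomal genes only, only the genotypes compared, DESeq2 1.42.0 and each library left out. A term for reads outside features, the fit without 5xFAD/p75NTRko replicate 1 and the alternatives of the interaction were chosen after seeing the data. The procedure was tested on simulated data.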

Additional observations from a re-analysis of the deposited data

Results flagged for a closer look

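Adra1b departed from WT differently with and without the other genotype: the interaction of transgene and receptor label was 2.73 on the log2 scale (SE 0.42, adjusted p 0.0307 by edgeR), with 34.3 ± 13.2 CPM in the cross against 15.7 ± 3.34 in 5xFAD, 18.8 ± 2.81 in p75NTRko and 56.9 ± 19.4 in WT (SD, n = 3 each). It was the 1 autosomal gene of 12572 past the threshold in that test (0.00795%). The WT libraries and the cross were all high in Xist (360 to 439 CPM) and low in Y-linked genes, and 5 of the 6 single-genotype libraries were the other way round, so the interaction nearly coincides with this class. A term for the class was again set by p75NTRko replicate 1 against its own group. With a term for Xist class it was 2.14 (adjusted p 0.998), and leaving out each of the 12 libraries gave 2.49 to 3.004 (adjusted p 0.00143 to 0.190), past the threshold without WT replicate 3 or 5xFAD/p75NTRko replicate 2 and not without any other.

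Reads outside any annotated feature, which enter no comparison, averaged 32.9% of the table in 5xFAD, above the highest WT library at 31.1%. Summed CPM of 4 Y-linked genes, which are not autosomal, averaged 186 in 5xFAD, above the highest WT library at 0.747. The groups held 3 libraries each and were not tested for single outlying libraries.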

How the results depend on the processing

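The count of 11 genes between the single genotypes was 5 with RLE size factors, 45 with no filter on low counts (7 higher, 38 lower), 18 with a mean of at least 50 counts, 2 with a term for Xist class, 79 with a term for the thalamus and habenula score (50 higher, 29 lower), 17 with a choroid plexus term (3 higher, 14 lower), 71 with a term for reads outside features (42 higher, 29 lower), 209 with only the genotypes compared (65 higher, 144 lower) and 81 with DESeq2 (10 higher, 71 lower). It was 11 with autosomal genes only and 9 without 5xFAD/p75NTRko replicate 1. Leaving out each library gave 1 to 3: 1 without replicate 2 of either genotype, 2 without replicate 1 and 3 without replicate 3. The cause of these changes was not tested.

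The 4 genes of 5xFAD against WT became 36 without a filter, 0 with a term for Xist class or for reads outside features, 1 with a thalamus or choroid plexus term or with autosomal genes only, 12 with only the genotypes compared, 87 with DESeq2 and 1 to 50 on leaving out each library. The 0 genes of p75NTRko against WT became 41 without a filter, 1 with a term for Xist class, 29 with a thalamus term, 23 with a choroid plexus term, 18 with only the genotypes compared, 50 with DESeq2 and 0 to 25 on leaving out each library. The 1 gene of the mean of both became 64 without a filter, 0 with a mean of at least 50 counts or with a term for the thalamus score or reads outside features, 14 with a choroid plexus term, 80 with only the genotypes compared, 76 with DESeq2, 14 without 5xFAD/p75NTRko replicate 1 and 0 to 146 on leaving out each library. With a term for Xist class 1 gene passed there too, but another one, and Adra1b had an adjusted p of 0.895. The highest counts came without WT replicate 3 in all 3 comparisons with WT. The 1 gene of the interaction became 0 to 16 on leaving out each library (16 without 5xFAD/p75NTRko replicate 2, 2 without WT replicate 3 and 0 without any other), and 1 other gene passed with a term for Xist class.

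The labels do not say whether replicate numbers pair the samples. Same-numbered 5xFAD and p75NTRko libraries had deviations correlated at 0.0433, 0.0318 and 0.00987, and unlike-numbered ones at -0.0624 to 0.027. With 3 libraries a genotype these values cannot decide whether samples were paired. With a replicate block 3 genes passed between the single genotypes, 1 in 5xFAD against WT, 0 in p75NTRko against WT and 0 in the mean of both.

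Of the values of single genes, 1669 kept direction and side of the threshold, 149 passed only in the alternative, 152 passed only in the main analysis and 13 changed sign. Plin4, p75NTRko against 5xFAD, was -1.25 with a term for Xist class, -0.60 with a term for reads outside features and, leaving out each library, -1.24 (without p75NTRko replicate 1) to 2.22. With the term for reads outside features that comparison gave 0.23 for App, 0.48 for Acta2 and -0.63 for Adra1b, and with the choroid plexus term -0.075 for Mia. Ide, p75NTRko against WT, was 0.0055 with the Xist term and 0.10 with the thalamus term. Ngfr, 5xFAD against WT, was -0.22 with the thalamus term, -0.058 with the choroid plexus term and, leaving out each library, -0.33 (without WT replicate 3 or 5xFAD replicate 1) to 1.004. Depth limits Ngfr in libraries without the receptor label, which had 1 to 12 counts.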
